A study of Mus musculus with 12 samples.

Results

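The genes described here are 7 G protein-coupled receptor genes of the mouse striatum, taken by name: the adenosine receptor genes Adora1 and Adora2a, the cannabinoid receptor gene Cnr1 and the muscarinic acetylcholine receptor genes Chrm1, Chrm2, Chrm3 and Chrm4. RNA levels came from RNA-seq, in which 6 of the 7 were among the 18208 genes of the table; the RNA level of Chrm4 was not analysed here. Binding of the RNA-binding protein hnRNP H came from CLIP-seq, in which RNA cross-linked to the protein is recovered with an antibody and sequenced. The 7 genes held 162 of the 147438 distinct positions of the CLIP count table, which covered 16910 genes, and 16 of the 14711 positions in the authors' final peak lists, of which there was 1 per treatment. Positions are taken as 100 nt wide, with starts counted from 0 in the files, but the count table lists each as 1 base wider, so a printed start could be off by 1 base. Every position whose identifier carried the gene's Ensembl number was taken once, and every listed peak by the gene symbol beside it.

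All mice were wild-type C57BL/6J animals, bred from heterozygous Hnrnph1 mutant males and C57BL/6J females, so no group carried the mutation; the mutant mice were not analysed here. They received saline on days 1 and 2. On day 3 the saline group received saline again and the methamphetamine group received methamphetamine at 2 mg/kg into the peritoneum, and whole striata were taken 30 min later. Each library came from a pool of 4 mice, 2 females and 2 males, aged 50 to 100 days, and each treatment had 3 pools, each giving 1 CLIP and 1 RNA-seq library, for 12 libraries. The design asks whether the drug shifted hnRNP H binding or RNA level within that time. A pool averages its mice, so the spread between pools is not that between animals.

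Adenosine, endocannabinoids and acetylcholine tune the signalling of striatal neurons through these receptors. Adora2a couples to the G protein that stimulates adenylyl cyclase and is concentrated on the projection neurons of the indirect pathway, whereas Adora1, Cnr1, Chrm2 and Chrm4 couple to the inhibitory class and Chrm1 and Chrm3 to the class that activates phospholipase C. hnRNP H is a nuclear protein that regulates splicing and RNA processing and binds runs of guanine.

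The RNA-seq libraries held 3935160 to 5091839 reads and the CLIP libraries 423057 to 1635338 reads in positions, fewest in saline replicate 2. The first principal component of the RNA-seq table (65.6% of the variance) placed saline replicates 1 and 3 with methamphetamine replicate 2, apart from the other 3 libraries, and so crossed the treatment. Summed markers of striatal projection neurons, 7 genes including Ppp1r1b and Rgs9, were 9783 to 11160 CPM (reads scaled to a fixed library total) in the former 3 libraries and 6637 to 7309 CPM in the latter, and those of astrocytes and microglia did not overlap either, in the opposite direction. Choroid plexus markers reached 4955 CPM in methamphetamine replicate 2 against 62.4 to 226 CPM elsewhere, and cortical excitatory neuron markers reached 1299 CPM in methamphetamine replicate 3 against 299 to 733 CPM. Of the defining markers only Kcne2 of the choroid plexus list and Slc17a6 of the neighbouring-region list were at 0 in a library. The part of these markers in the results below was not tested, and in bulk striatum fewer cells of a type and less RNA per cell cannot be told apart.

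The sequences under hnRNP H positions are shown first, because the positions differ in how many guanine runs they hold. Only positions lying wholly in an annotated exon could be read, from the GENCODE M21 transcripts of mouse build GRCm38 (mm10). Each line gives the 30 bases of the 100-nt position with the most guanine in runs, 5′ to 3′ on the gene's strand, and capitals mark runs of at least 3 guanines. All 6 lie in listed positions.
Adora2a 5′ UTR, chr10:75316910-75316939 (+): gacctgaagcgcccacgttGGGGcgaaGGG
Adora2a 3′ UTR, chr10:75334388-75334417 (+): tttattgacttcccctccctggctgctGGG
Adora2a 3′ UTR, chr10:75334518-75334547 (+): acaGGGctatctcccgctaataaagctGGG
Adora2a 3′ UTR, chr10:75334687-75334716 (+): cttcGGGGGtGGGGtGGGGtGGGGGtGGGG
Cnr1 5′ UTR, chr4:33924824-33924853 (+): cgcacGGGtgctagaggccGGGGacgcGGG
Chrm4 coding exon, chr2:91927518-91927547 (+): atacatcatcaaGGGctactggcccctGGG

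The third of the Adora2a 3′ UTR sequences is an almost unbroken chain of guanine runs, with 5 runs of at least 4 guanines in its 100-nt position, whereas the position with the most Adora2a reads held 1 run of 3. All 7 listed exonic positions of the receptor genes (5 in Adora2a, 1 in Cnr1 and 1 in Chrm4) held GGG on the transcribed strand, and 5 of them held GGGG, which also counts as GGG. Among the 23 unlisted exonic positions of the count table in these genes, 12 (52.2%) held GGG and 4 (17.4%) held GGGG. Exonic windows of the same width in the 7 genes without a position held GGG in 66.9% of 305 cases and GGGG in 28.2%, and listed exonic positions of all genes held them in 81.4% and 48.45% of 3938 cases. Of the 7 listed positions 5 are in Adora2a, whose own windows without a position held GGG in 19 of 20 cases and GGGG in 9, so within this gene the listed positions differed little from the rest in GGG. The unlisted positions, 14 of 23 in Cnr1, fell apart by gene: 3 of 14 in Cnr1 held GGG, against 3 of 3 in Chrm4. A guanine run was therefore also present at positions in neither list.

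Adora2a, the receptor most typical of indirect-pathway neurons, had the highest RNA level of the 6 genes per transcript length, at 142 ± 16.9 CPM per kb (SD, n = 3) in saline. By the mean of all 6 libraries it was at percentile 98.6 of 17904 genes. In saline Chrm1 followed at 39.7 ± 2.53 CPM per kb, then Cnr1 at 31.0 ± 6.07 and Adora1 at 29.3 ± 2.47. Adora2a stood clear of the others in each library (102 to 153 CPM per kb), while Chrm1 (33.0 to 42.6), Cnr1 (18.1 to 36.2) and Adora1 (25.8 to 34.3) overlapped as neighbours in this order. Chrm3 and Chrm2 were far lower, at 4.83 ± 0.638 and 1.00 ± 0.129 CPM per kb in saline (percentiles 65.8 and 36.8 by the mean of all 6 libraries). Their ranges of 4.38 to 7.88 and 0.881 to 1.77 overlapped neither each other nor the rest.

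**Figure D1:**
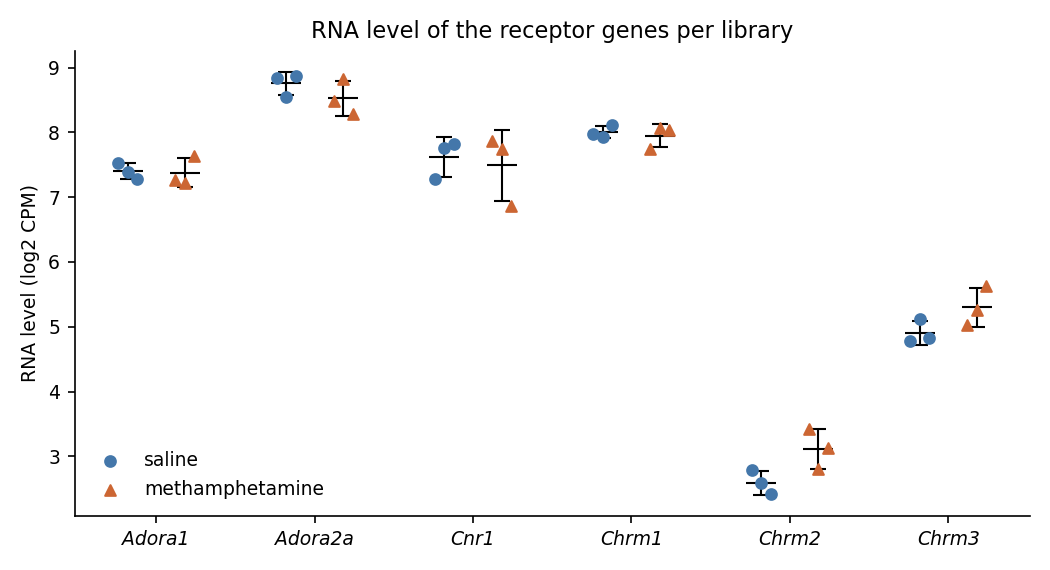
RNA level (log2 CPM, y axis) of 6 receptor genes in each RNA-seq library, saline as circles and methamphetamine as triangles, with black bars for the mean ± SD of 3 pools. The treatments overlap for 5 genes, and the 3 methamphetamine pools of Chrm2 (2.80 to 3.42) lie above its saline pools (2.41 to 2.78).

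None of the 6 measured receptor RNAs passed the test for methamphetamine against saline, and none of the 18208 genes did (limma with Benjamini-Hochberg adjustment, percent called 0; 276 genes, or 1.52%, had an unadjusted p under 0.05, none of them a receptor gene). The adjusted p was 0.99983 for each of the 6. Changes below are methamphetamine minus saline on the log2 CPM scale, and the median over the 6 genes was -0.04, beside 0.00198 over all genes. The largest change was that of Chrm2 and the smallest that of Adora1. Parts of Adora1, Chrm1, Chrm2 and Chrm3 overlap annotated genes on the opposite strand, such as Mybph at the end of Adora1, and since strand use is not stated, reads of the overlapping stretches cannot be told apart.

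Of the adenosine receptors, Adora1, which is widely expressed and inhibits adenylyl cyclase, was at 7.53, 7.39 and 7.29 log2 CPM in saline replicates 1, 2 and 3 and at 7.27, 7.22 and 7.63 after methamphetamine. The groups overlapped, with the highest and the lowest level both after methamphetamine, and the change was -0.03 ± 0.17 (SE; 95% interval -0.41 to 0.35). Adora2a was at 8.84, 8.55 and 8.88 log2 CPM in saline and at 8.49, 8.82 and 8.29 after methamphetamine, a change of -0.22 ± 0.19 (95% interval -0.66 to 0.21). Its level overlapped between treatments but not between the sides of the first component. It was 8.82 to 8.88 in the 3 libraries rich in projection neuron markers and 8.29 to 8.55 in the other 3. Among the former, the difference of methamphetamine replicate 2 from saline replicates 1 and 3 was -0.04. Among the latter, that of methamphetamine replicates 1 and 3 from saline replicate 2 was -0.16. The part of this split in the Adora2a level was not tested. Markers of indirect-pathway neurons, 5 genes including Drd2 and Penk and without Adora2a, summed to 1225 to 1347 CPM in saline and 1002 to 1117 CPM after methamphetamine, and none of the 5 had an unadjusted p under 0.05. These sums did not overlap between treatments, and all 5 changes were negative. Of all single genes 6.01% failed to overlap between treatments, and no such share was taken for sums. Between the sides of the first component the sums overlapped, at 1117 to 1347 and 1002 to 1225 CPM. Their part in the Adora2a level was not tested.

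Cnr1, the presynaptic receptor for endocannabinoids, was the most variable of the abundant receptor RNAs: 7.27, 7.77 and 7.82 log2 CPM in saline and 7.87, 7.75 and 6.87 after methamphetamine. Its highest and lowest levels were both in methamphetamine pools, and the lowest was in replicate 3, the library highest in cortical markers and in Adora1. The change was -0.13 ± 0.28 (95% interval -0.75 to 0.49).

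Among the muscarinic receptors, Chrm1, the main excitatory type of projection neurons, kept to a narrow range of 7.74 to 8.11 log2 CPM over the 6 libraries, with a change of -0.06 ± 0.16 (95% interval -0.42 to 0.31). Chrm3, of the same G protein class, was at 4.78, 5.12 and 4.83 in saline and 5.02, 5.26 and 5.62 after methamphetamine. One saline pool lay above the lowest methamphetamine pool, and the change was 0.39 ± 0.21 (95% interval -0.08 to 0.86; unadjusted p = 0.0903 in limma).

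Chrm2, an inhibitory receptor found on cholinergic interneurons, was the only one of the 6 whose groups did not overlap: 2.78, 2.59 and 2.41 log2 CPM in saline and 3.42, 2.80 and 3.13 after methamphetamine. Groups failed to overlap upward in 2.44% of all genes and in either direction in 6.01%, and the count is to be read against these shares. The level rested on 24, 28 and 21 reads in saline and 53, 30 and 45 after methamphetamine. The change was 0.52 ± 0.29 (95% interval -0.14 to 1.19; unadjusted p = 0.110 in limma), and it was 0.20 among the libraries rich in projection neuron markers and 0.69 among the others. The 6 cholinergic interneuron markers, including Chat, summed to 120 to 158 CPM in saline and 124 to 136 CPM after methamphetamine. The 6 markers of other interneurons, including Pvalb and Sst, summed to 505, 466 and 420 CPM in saline and 688, 487 and 712 CPM after methamphetamine, highest in the same 2 pools as Chrm2, and their part in the Chrm2 levels was not tested.

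The genes whose level followed each receptor most closely over the 6 RNA-seq libraries were drawn from 7853 genes with a mean of at least 4 log2 CPM. They describe shared variation between pools, which includes the split by cell markers. Adora2a was followed by Ndufs3 (Pearson r = 0.998) and Scn4b (0.996), and Adora1 by Pcdh17 (0.975) and Pdyn (0.974). Cnr1 was followed by Ticam2 (0.991) and Litaf (0.949), which like Cnr1 were lowest in methamphetamine replicate 3. Chrm1 was followed by Pcnx2 (0.994) and Mrtfa (0.992), and Chrm3 by Ccnd1 (0.993) and Gnb4 (0.992). Chrm2 was below the level for this comparison.

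All 70 genes fixed as the receptors' pathways were measured, and none had an unadjusted p under 0.05 in either direction. The fitted change was positive in 33 and negative in 37, with a median of -0.01. The 5 other receptors of the families all had negative values, from -0.06 ± 0.37 (SE) for Gpr55 to -0.47 ± 0.53 for the adenosine receptor gene Adora3, on as few as 4 reads a library. Of 16 G protein subunit genes, 11 had positive values, the highest being Gng2 at 0.76 ± 0.41 and the lowest Gng7, of the striatal stimulatory G protein, at -0.18 ± 0.17. Of 9 genes listed for RGS proteins, which shorten G protein signals, 3 had positive values, from Rgs14 at -0.40 ± 0.21 to Rgs16 at 0.21 ± 0.34. The list includes the RGS-binding protein gene Rgs7bp. Among 10 genes of adenosine handling the range ran from Slc28a2 at -0.90 ± 0.85 to the adenosine transporter gene Slc29a1 at 0.24 ± 0.17. Slc28a2 held only 1, 1 and 1 reads in saline and 3, 0 and 0 after methamphetamine. Among 14 genes listed under endocannabinoid synthesis and breakdown, the receptor-interacting protein gene Cnrip1 included, 9 had positive values, between Plcb3 at -0.25 ± 0.25 and Plcb4 at 0.75 ± 0.49. The 7 genes of acetylcholine handling lay between the choline transporter gene Slc5a7 at -0.28 ± 0.49 and Slc44a1 at 0.14 ± 0.23, and the 9 cyclase effectors between Ppp1r1b at -0.36 ± 0.31 and Adcy1 at 0.42 ± 0.21. Of these named genes Gpr55, Gng2, Rgs14, Rgs16, Plcb3, Plcb4, Ppp1r1b and Adcy1 did not overlap between the sides of the first component. Adora3, Gng7, Slc28a2, Slc29a1, Slc5a7 and Slc44a1 did. Gng2 was at 4.245 to 5.223 log2 CPM in the libraries rich in projection neuron markers and at 5.767 to 6.342 in the others. The former are saline replicates 1 and 3 and methamphetamine replicate 2. The part of this split in the changes was not tested.

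The order of the receptor genes by hnRNP H CLIP reads was not their order by RNA level. Summed over all positions and 6 libraries of unequal depth, Cnr1 held 1077 reads, Adora1 1007, Adora2a 903, Chrm3 513, Chrm2 335, Chrm1 141 and Chrm4 47. Saline replicate 2 gave 253 of the Chrm3 reads, and in each of the other 5 libraries Chrm2 held more reads than Chrm3; the order of Cnr1, Adora1 and Adora2a also differed between libraries. Relative to RNA level, taken per pool as the log2 of CLIP CPM + 1 minus the RNA-seq log2 CPM, Chrm2 was highest, with 2.96, 3.97 and 3.41 in saline and 2.33, 3.28 and 3.14 after methamphetamine. Its mean of 3.18 was at percentile 85.0 of 7021 genes, whose median was 0.164. These genes had passed a filter on CLIP counts but none on RNA level. A gene with little RNA thus entered only at a comparatively high value. Chrm1 was lowest, with -4.09, -1.38 and -4.35 in saline and -2.03, -3.81 and -3.96 after methamphetamine, a mean of -3.27 at percentile 3.32. Every Chrm2 pool thus lay far above every Chrm1 pool, although both genes encode muscarinic receptors and Chrm1 RNA was the more abundant. In between, Chrm3 averaged 1.19 (percentile 66.0; 0.57 and percentile 56.4 without saline replicate 2), Adora1 0.12 (percentile 49.1), Cnr1 -0.07 (percentile 45.7) and Adora2a -1.21 (percentile 24.5). This measure sets reads on all positions, introns included, against RNA counted per gene, and the 140-kb Chrm2 and 485-kb Chrm3 genes are the longest of the 7, so length differs together with it.

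**Figure D2:**
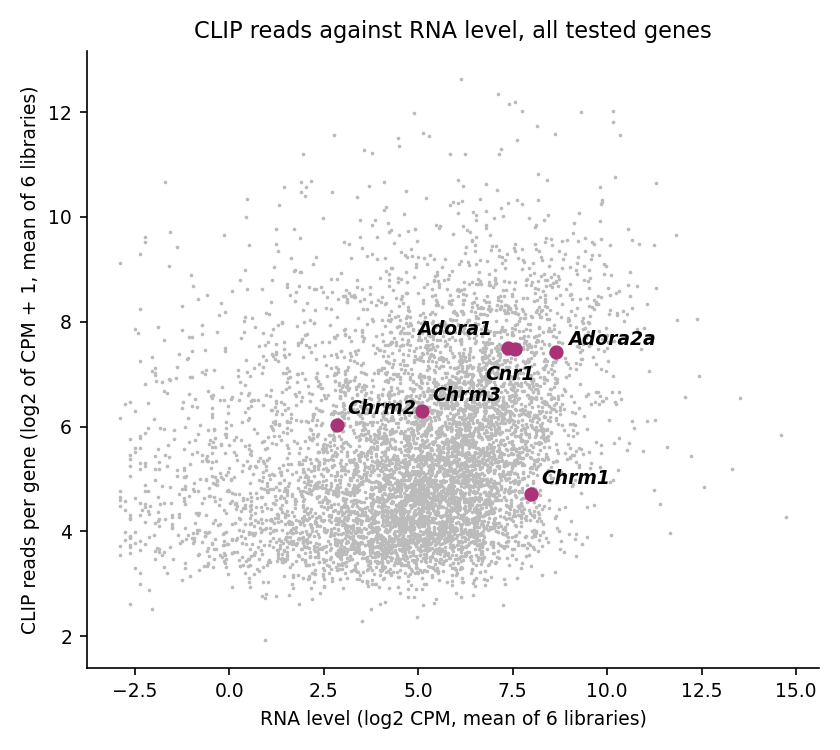
CLIP reads per gene (log2 of CPM + 1, y axis) against RNA level (log2 CPM, x axis), each the mean of 6 libraries, for 7021 genes in grey and 6 receptor genes in purple. Chrm1 is at percentile 3.32 of CLIP per RNA over all 7021 genes, and Chrm2 has less RNA and more CLIP reads than Chrm1.

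Over treatments, none of the 6 receptor genes that passed the filter on low counts was called for a change in summed CLIP reads. None of 8177 genes was called either (edgeR's quasi-likelihood test with Benjamini-Hochberg adjustment, percent called 0). In that test 429 genes, or 5.25%, had an unadjusted p under 0.05, 2.76% with a lower value. Groups did not overlap in 0 of the 6, beside 9.59% of all genes. The median change over the 6 was -0.02 beside 0.04 over all genes. Of the 7, Chrm4 did not pass the filter. In CPM scaled by the trimmed mean of M-values (TMM), Adora1 was at 208, 165 and 183 in saline and 123, 194 and 236 after methamphetamine, a log2 change of -0.01 ± 0.36 (SE). Adora2a was at 122, 255 and 143 and then 261, 119 and 184 (0.13 ± 0.44). For both adenosine receptors the methamphetamine pools spanned the saline range. Cnr1 was at 132, 144 and 237 CPM and then 305, 95.9 and 248 (0.34 ± 0.48, and 0.0049 without methamphetamine replicate 1). Chrm2 was at 52.5, 93.0 and 55.7 CPM and then 52.7, 66.6 and 76.3 (-0.02 ± 0.40). Chrm1 was at 13.9, 93.0 and 12.6 and then 51.6, 18.2 and 16.0 (-0.36 ± 0.86), with 1 high pool in each group.

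Chrm3 was the 1 receptor gene with an unadjusted p under 0.05 (0.0364; adjusted p = 0.882 in edgeR), with a fitted log2 change of -2.36 ± 0.96. Its values were 51.5, 672 and 52.7 CPM in saline and 37.5, 59.6 and 51.4 after methamphetamine, so saline replicate 2, the shallowest CLIP library, stood alone and the other 5 pools lay between 37.5 and 59.6. Without saline replicate 2 the change was -0.11. Chrm3 was also the 1 gene of the 6 whose CLIP reads per RNA level did not overlap between groups, being 0.94, 4.28 and 0.92 in saline and 0.25, 0.66 and 0.09 after methamphetamine; 3.46% of 7021 genes lay lower in this way and 7.56% failed to overlap in either direction. That change was -1.71 ± 0.87 (95% interval -3.67 to 0.24; limma, adjusted p = 0.99724) and -0.60 without saline replicate 2. The other 5 genes changed by -0.53 to 0.36 on this scale, and 0 of 6 and 0 of 7021 genes were called (percent called 0; 213 genes, or 3.03%, had an unadjusted p under 0.05).

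Chrm4, an inhibitory muscarinic receptor of direct-pathway neurons whose annotated gene is a single exon of 1440 nt, held 9, 4 and 9 reads in saline and 21, 4 and 0 after methamphetamine. All 47 reads lay in coding sequence, where all of the gene's positions lie, so binding in other parts of the RNA was not measured. The groups overlapped, the highest and the lowest pool both being methamphetamine pools, and at this depth no difference was detectable; a count of 0 in methamphetamine replicate 3 allows up to 3 reads, or 5.04 CPM of the library total.

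**Figure D3:**
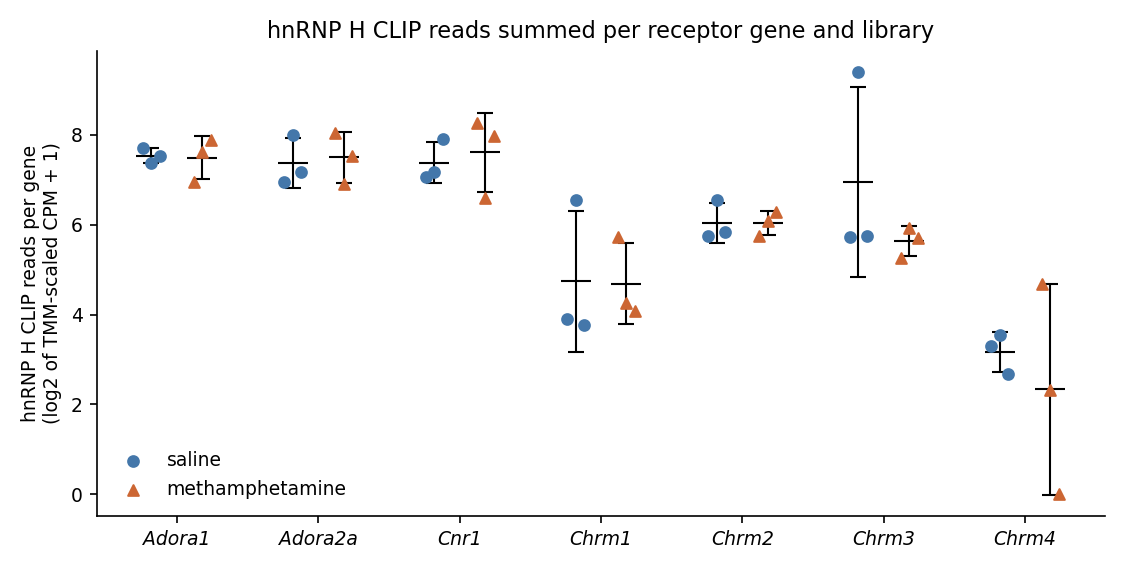
CLIP reads summed per gene (log2 of TMM-scaled CPM + 1, y axis) in each library, saline as circles and methamphetamine as triangles, with black bars for the mean ± SD of 3 pools. For Chrm3 a single saline pool (672 CPM) lies above the other 5 (37.5 to 59.6 CPM), and the treatments overlap for each gene.

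Most receptor positions were thinly covered: 107 of the 162 held under 10 reads, and 9 passed the filter for testing (4 in Adora2a, 2 in Chrm3 and 1 each in Adora1, Cnr1 and Chrm2). None of the 9 was called, nor any of 10358 positions tested (edgeR, percent called 0). An unadjusted p under 0.05 was found for 1 of the 9, beside 3.35% of all positions tested, 1.49% with a lower value. The density of positions ranged from 3.22 per kb of gene in Cnr1 and 2.78 in Chrm4 to 0.0206 in Chrm3. In 4 of the 7 genes a single position held over 50% of the reads summed over libraries. For Chrm3 that share came from saline replicate 2 (90.5%), with 17.2 to 36.5% in the others. For Cnr1 it was 42.6% in saline replicate 2 and 10.0% in methamphetamine replicate 1.

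In Adora1 that concentration was greatest. The intronic position chr1:134206124-134206223 (minus strand) held 202, 59 and 291 reads in saline and 91, 181 and 126 after methamphetamine, 950 of the gene's 1007 reads (94.3%). Its share of the gene's reads was 86.7 to 96.2% in each of the 6 libraries, so the position led in every pool, and its change was 0.15 ± 0.34 on the log2 scale (adjusted p = 0.9998 in edgeR). It was in neither peak list; 0.494% of the 133627 unlisted positions held at least as many reads. Adora1 had no listed position at all, and its other 9 positions held 8, 3 and 14 reads in saline and 14, 11 and 7 after methamphetamine.

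Adora2a reads were spread over 37 of its 39 positions, with 53.2% in introns, 43.3% in the 3′ UTR and 3.54% in the 5′ UTR. The 3′ UTR held listed positions side by side near the gene's end. The first, chr10:75334378-75334477, held 17, 30 and 32 reads in saline and 52, 19 and 17 after methamphetamine and was in both lists. The next, chr10:75334478-75334577, held 15, 25 and 30 and then 45, 18 and 23 reads and was in the saline list only. Both were highest, in reads, in methamphetamine replicate 1 and in CPM in saline replicate 2, and their changes were 0.28 ± 0.83 and 0.50 ± 0.79 (adjusted p = 0.9998 for both in edgeR). The guanine-chain position chr10:75334678-75334777 held fewer, 13, 6 and 10 and then 27, 9 and 1 reads, and was in both lists; its change was 0.76 ± 0.96. Its signal value in the authors' deposited table was 1.48 in the saline list and 2.07 in the methamphetamine list. A further position between these, chr10:75334578-75334677, was in the methamphetamine list without a line in the count table.

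The listed 5′ UTR position of Adora2a, chr10:75316878-75316977, begins within 1 nt of the annotated gene start and held 9, 2 and 8 reads in saline and 3, 8 and 2 after methamphetamine. Of its intronic positions, 2 were listed: chr10:75325178-75325277 in the saline list with 3, 2 and 15 and then 7, 2 and 0 reads, and chr10:75329478-75329577 in the methamphetamine list with 1, 1 and 0 and then 17, 0 and 4 reads. In the latter, methamphetamine replicate 1 held 65.1% of the CPM. The best covered intronic position, chr10:75324678-75324777, was in neither list with 34, 10 and 38 and then 13, 23 and 34 reads, a change of 0.44 ± 0.56.

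Cnr1 reads gathered on the 5′ UTR, at chr4:33924794-33924893, 250 nt from the gene start to the position's centre. It held 93, 23 and 313 reads in saline and 26, 58 and 118 after methamphetamine, 58.6% of the gene's reads. In CPM of library totals it was at 111 ± 71.4 in saline and 95.3 ± 90.4 after methamphetamine (SD, n = 3), and the change was -0.01 ± 0.73 (adjusted p = 0.9998 in edgeR). It was in the methamphetamine list only, so for this position presence in a single list did not go with a higher level.

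Where Cnr1 reads lay differed in methamphetamine replicate 1. There the 5′ UTR position held 10.0% of the gene's reads (Wilson 95% interval 6.92 to 14.3%), against 42.6 to 84.3% in the other 5 libraries. Introns held 79.2% of the reads in that library and 13.6 to 37.0% in the others. Without the 5′ UTR position the remaining 77 positions came to 257 CPM of library totals in methamphetamine replicate 1 and to 37.0 to 73.3 CPM in the other 5, which included both other methamphetamine pools. Of 59 intronic positions with reads, 42 were highest in that library; of all positions in the series with reads, 35.2% were highest there. The RNA level of Cnr1 in that pool was 7.87 log2 CPM, the highest of the 6, beside 7.75 to 7.82 in 3 others.

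Both intronic Cnr1 positions of the methamphetamine list followed that library. chr4:33935794-33935893 held 1, 0 and 2 reads in saline and 22, 2 and 4 after methamphetamine. chr4:33938794-33938893 held 17 reads in methamphetamine replicate 1 and none in the other 5. Neither was tested, since both were under the filter on low counts.

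**Figure D4:**
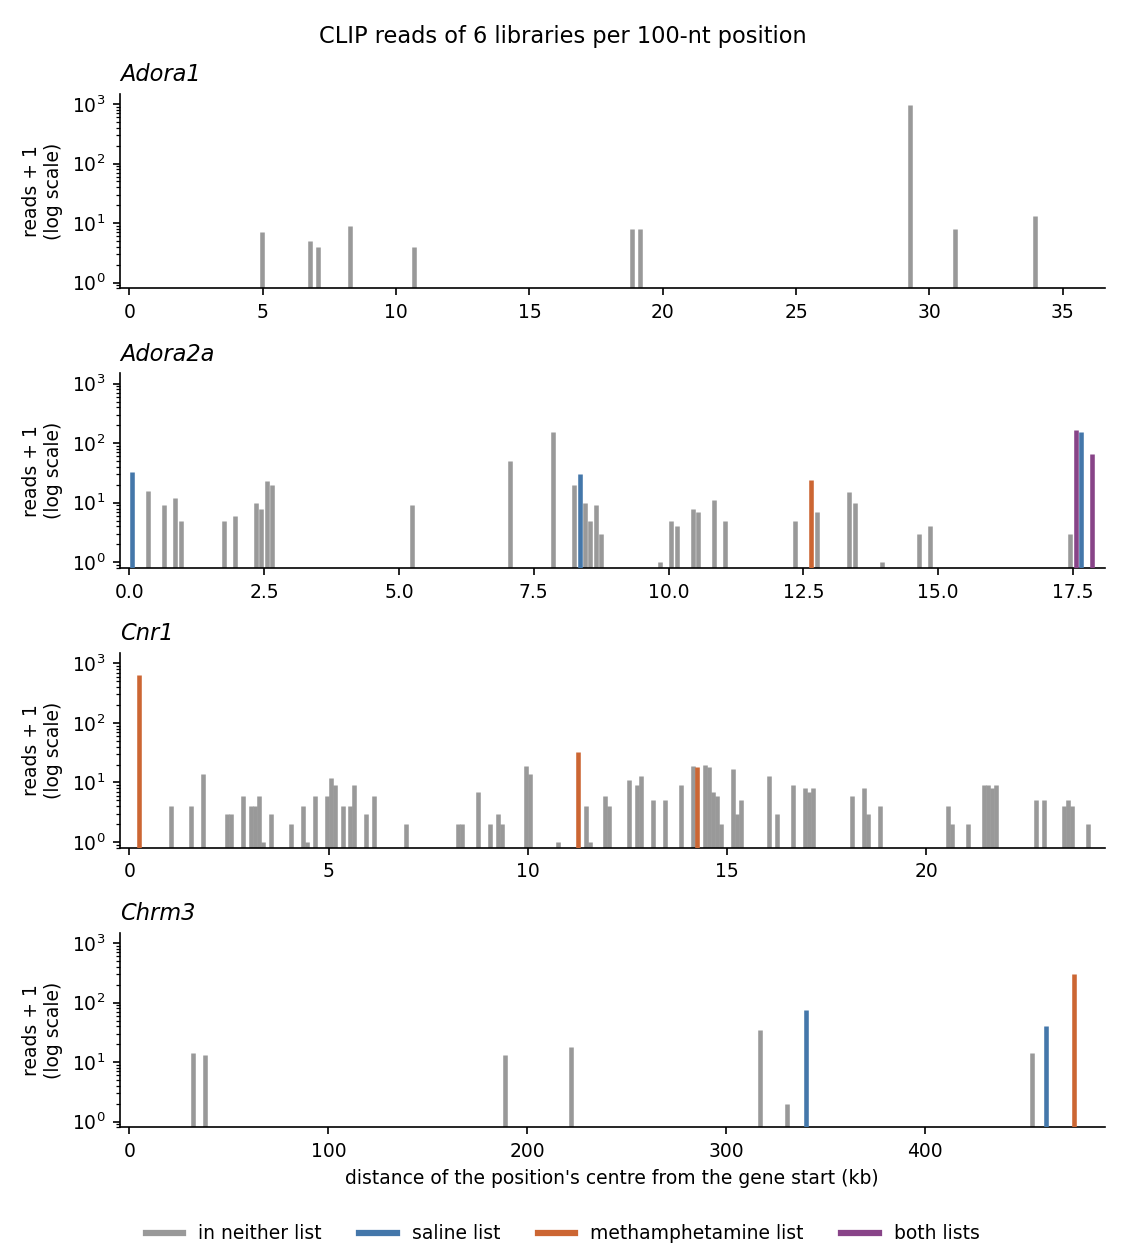
CLIP reads + 1 summed over 6 libraries (y axis, log scale) at each 100-nt position along 4 receptor genes, by distance of its centre from the gene start in kb (x axis), in the direction of transcription. Colours give the peak list; 1 position holds 94.3% of Adora1 reads and is in neither list, and the Cnr1 5′ UTR position stands at the start of the gene.

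In Chrm2 each of the 6 positions with reads was intronic. The leading one, chr6:36393385-36393484, held 34, 21 and 50 reads in saline and 29, 45 and 32 after methamphetamine and was in both lists. It was the most evenly covered listed position, with no library above 22.0% of its CPM, and held 53.8 to 74.4% of the gene's reads in each library. Its change was 0.40 ± 0.43 (adjusted p = 0.9998 in edgeR). The other listed position, chr6:36394285-36394384, held 3, 2 and 6 and then 8, 6 and 1 reads. The gene also hosts the microRNA gene Mir490, 23458 nt from the nearest position with reads.

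In Chrm3 all 10 positions were intronic as well. The position chr13:9886187-9886286 (minus strand) held 19, 229 and 20 reads in saline and 6, 20 and 5 after methamphetamine. Saline replicate 2 held 89.2% of its CPM, and yet the position was in the methamphetamine list only. It was the 1 position with an unadjusted p under 0.05 (0.0311; adjusted p = 0.9998 in edgeR), at -4.06 ± 1.54, and at -0.13 without saline replicate 2. Summed over the other 9 positions, Chrm3 was at 31.3, 56.7 and 41.6 CPM of library totals in saline and 28.6, 39.8 and 40.3 after methamphetamine, and the groups overlapped. The positions of the saline list, chr13:9900187-9900286 and chr13:10020687-10020786, held 10, 4 and 10 and then 5, 8 and 2 reads, and 8, 6 and 30 and then 5, 17 and 8 reads; the latter changed by -0.01 ± 0.58.

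Chrm1 had 15 positions, none listed and none above 30 reads. Introns held 55.3% of the gene's reads and 4 positions of the 3′ UTR held 41.1%. The 3′ UTR share ran from 11.4% in saline replicate 2 to 66.7% in methamphetamine replicate 2. In Chrm4 the listed coding position chr2:91927450-91927549 held 0, 1 and 0 and then 13, 0 and 0 reads, and the best covered one, chr2:91928050-91928149, held 5, 2 and 4 and then 2, 3 and 0.

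Over the 15 listed positions with counts, 5 had over 50% of their CPM in a single library, 4 of them in methamphetamine replicate 1; the share over all listed positions with at least 10 reads was 20.9%. Of the 7 found only in the methamphetamine list, 5 had a higher mean CPM after methamphetamine and 2 a lower one (the Cnr1 5′ UTR and Chrm3 positions), where 79.7% of such positions in the series were higher. Of the 5 found only in the saline list, 4 had a higher mean in saline, beside 83.9% in the series.

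**Figure D5:**
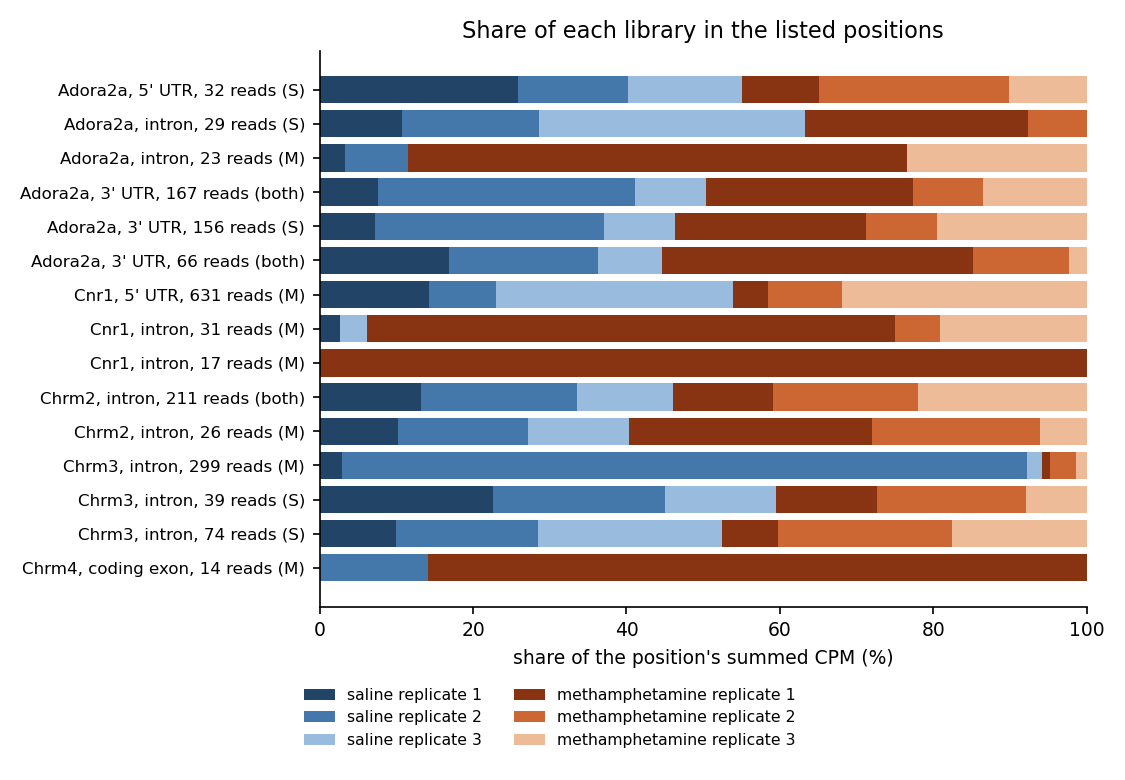
Share of each position's summed CPM (x axis, percent) that came from each of the 6 CLIP libraries, for the 15 listed receptor positions with counts; S, M and both name the peak list. Bars mostly of a single colour mark positions carried by 1 pool, such as the Chrm3 position at 89.2% in saline replicate 2, while the Chrm2 position with 211 reads is shared evenly.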

How the data were processed

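Per the labels, RNA-seq RNA was taken from each pool before cross-linking, and CLIP libraries were made from the membrane slice holding hnRNP H with its bound RNA. The submitters' processing notes name Trimmomatic, UMI-tools, STAR, bedtools, Subread, featureCounts, limma and edgeR and build mm10, without roles; strand use, annotation, treatment of duplicates and the peak test are not given in the sources used here. The deposited RNA-seq values are log2 CPM (voom, offset 0.5 reads; all values inverted to whole reads within 0.02 reads). The deposited CLIP table holds whole-number counts per position, used once per distinct position. The authors' peak lists give a signal score and p-values and q-values per position, used only to describe positions. Positions are given 1-based.

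RNA-seq levels were tested with limma 3.58.1 (trend) over all genes. For CLIP counts, per position and summed per gene, the quasi-likelihood test of edgeR 4.0.16 was run in R 4.3.3 after filterByExpr and TMM scaling; the SE of a CLIP change was taken from the test statistic. CLIP per RNA used a pseudocount of 1 CPM and limma. Adjusted p-values (Benjamini-Hochberg, threshold 0.05) run over all features. Tests were checked on simulated data, where they called few or none of the smallest changes tried and most of the largest. The simulated libraries held no library split and no single high pool, so the check does not cover data with these. Regions came from GENCODE M21. Genes named for a like pattern are the 2 with the highest r per receptor with a mean of at least 4 log2 CPM; pathway genes are named by the highest and lowest change. The 7 genes, the lists and the tests were chosen with earlier results of these data known. Alternatives were DESeq2 1.42.0, library totals, other filters and pseudocounts, a replicate block, the library split as a covariate and each pool left out. Wilson intervals cover counting error only. The Chrm1 position with the most reads is not reported here.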

Additional observations from a re-analysis of the deposited data

How the results depend on the processing

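The count of receptor genes or positions called was 0 under each alternative run for RNA level, CLIP reads per gene and CLIP per RNA. For CLIP positions it was 1 without the filter on low counts, where 406 of 147438 positions were called: the Chrm3 position 9886187 at -3.91 (adjusted p = 0.000737 in edgeR), a value carried by saline replicate 2. DESeq2 gave no adjusted p for this position (-4.15) or for the Chrm3 CLIP sum (-2.38), so neither could be called there. The main fit tested 9 of the 162 positions, none of the 107 under 10 reads, and not the Chrm4 sum. Without the filter on low counts all 162 positions and the Chrm4 sum were tested. Same-numbered saline and methamphetamine libraries did not deviate together (RNA-seq r = -0.346, -0.821 and -0.489, CLIP r = -0.358, -0.539 and -0.090). Each such pair joined libraries from opposite sides of the first component. These values therefore cannot decide whether same-numbered libraries share more than a number. With the replicate as a block 0 receptor genes were called, the Chrm3 CLIP sum changed by -1.28, and the genes or positions at an unadjusted p under 0.05 went from 276 to 144 in RNA level, from 429 to 183 in CLIP sums, from 347 to 127 in positions and from 213 to 146 in CLIP per RNA. Values without a call turned sign as follows; the cause was not tested. With the library split as a covariate, CLIP sums were -0.17 for Adora2a, 0.052 for Adora1 and -0.012 for Cnr1, CLIP per RNA was -0.081 for Adora2a, -0.60 for Chrm1 and 0.083 for Adora1, and positions were -0.22 for Adora2a 75334378, -0.058 for Adora2a 75334478 and 0.0045 for Chrm3 10020687. With a pseudocount of 5 CPM, Chrm1 CLIP per RNA was -0.024. Without the count filter the positions Adora1 134206124 and Adora2a 75334378 were at -0.25 and -0.12.

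Leaving out each pool in turn gave RNA changes of -0.16 to 0.049 for Adora1, -0.12 to 0.047 for Chrm1 -0.31 to 0.18 for Cnr1, -0.37 to -0.10 for Adora2a, 0.37 to 0.68 for Chrm2 and 0.23 to 0.53 for Chrm3. CLIP sums ran from -0.23 to 0.21 for Adora1, -0.18 to 0.45 for Adora2a, -1.08 to 1.06 for Chrm1, -0.17 to 0.23 for Chrm2, 0.0049 to 0.67 for Cnr1 and -2.84 to -0.11 for Chrm3. CLIP per RNA ran from -0.16 to 0.19 for Adora1, -0.61 to 0.95 for Chrm1, -0.13 to 0.99 for Cnr1, 0.053 to 0.78 for Adora2a, -0.77 to -0.24 for Chrm2 and -2.28 to -0.60 for Chrm3. Positions ran from -0.10 to 0.26 for Adora1 134206124, from -0.32 to 0.69, -0.58 to 1.38, -0.082 to 1.496 and -0.91 to 1.23 for Adora2a 75324678, 75334378, 75334478 and 75334678, from -0.35 to 0.25 for Chrm3 10020687, from -4.56 to -0.13 for Chrm3 9886187, from 0.22 to 0.73 for Chrm2 36393385, and from -1.17 to 0.57 for Cnr1 33924794.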
